A study of Mus musculus with 4 samples.

Results

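The clustered histone genes of the mouse, those whose symbols begin with Hist1h, Hist2h, Hist3h or Hist4h, were described in RNA-seq libraries of hematopoietic stem cells (HSC) and common lymphoid progenitors (CLP). The members were chosen by symbol among the deposited rows, and no deposited value was 0, so a gene could enter only if it had an FPKM above 0 in at least 1 library. This gave 57 genes out of 12417 in the series, namely 4 of the H1 type, 12 H2A, 17 H2B, 12 H3 and 12 H4. Of these, 56 were among the 70 clustered histone symbols of the GENCODE vM1 annotation, and the other 14 annotated symbols had no row. Hist2h3c2-ps, counted with H3, and Hist3h2bb-ps, counted with H2B, carry the -ps ending of a pseudogene symbol. Rows were present in all 4 libraries for 37 members, in 3 for 8, in 2 for 6 and in 1 for 6.

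The study sequenced bone marrow cells of C57BL/6 mice, 8 to 12 weeks old, that were wild-type (WT) or lacked G protein-coupled receptor kinase 6 (GRK6-/-, a germline knockout without exons 3 to 9 of Grk6). The gate for HSC was Lin-c-kit+sca-1+, and CLP were in addition Il-7Ra+. Each genotype gave 1 HSC and 1 CLP library, 4 in all. Each was a pool of cDNA from 13 to 15 cells of 3 to 4 mice, primed with poly(dT) and amplified cell by cell in 20 and then 10 cycles of PCR. With 1 library in a group, no difference below could be tested against variation between mice, and none has an error or a p-value. A library with fewer cells that express a gene cannot be told apart from one with less RNA in each cell.

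Histones package DNA. H2A, H2B, H3 and H4 form the core of the nucleosome, and H1 binds the linker DNA between nucleosomes. Most clustered histone genes are replication-dependent, that is, they are transcribed mainly in S phase, when new DNA is packaged. Their mRNAs usually end in a conserved stem-loop instead of a poly(A) tail, so a poly(dT) primer has no tail to bind on the usual form. Some clustered genes also give polyadenylated transcripts, and the replication-independent variant genes elsewhere in the genome make ordinary polyadenylated mRNAs.

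The stem-loop itself is printed for the leading members of each type, because their mRNAs usually end in it instead of a poly(A) tail. Capitals mark the 16 bases of the stem-loop, lower case marks 5 bases on each side, and all are written 5′ to 3′ on the transcribed strand of mm9 (NCBIM37).
Hist1h1c, chr13:23831376-23831401, plus strand: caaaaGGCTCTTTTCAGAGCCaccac
Hist1h2ag, chr13:22134347-22134372, minus strand: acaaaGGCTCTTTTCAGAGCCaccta
Hist1h2bj, chr13:22135502-22135527, plus strand: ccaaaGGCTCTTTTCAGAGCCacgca
Hist1h3a, chr13:23853754-23853779, minus strand: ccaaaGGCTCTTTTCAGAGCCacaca
Hist1h3c, chr13:23836911-23836936, minus strand: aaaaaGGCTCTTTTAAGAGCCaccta
Hist1h4i, chr13:22132830-22132855, minus strand: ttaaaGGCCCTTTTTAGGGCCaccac
Hist1h4n, chr13:21923662-21923687, minus strand: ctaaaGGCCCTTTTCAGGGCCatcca

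A 16-base pattern was searched on the transcribed strand in the 150 bases after the last codon before the stop. The pattern allowed either pyrimidine or either purine in the variable stem positions. In the loop it allowed any base at 1 position and either pyrimidine at another. It was found in 53 of the 55 members with an annotated coding sequence, or 96.4%, against 4 of 22313 other protein-coding genes, or 0.0179%. The members without a match were Hist1h2an and Hist2h2be. The form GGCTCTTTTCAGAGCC was that of 4 H1, 10 H2A, 11 H2B and 7 H3 genes. No H4 gene had it, and 7 of the 12 H4 genes had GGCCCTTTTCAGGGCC. The polyadenylation signals AATAAA or ATTAAA were found within 600 bases after the coding sequence of 23 of the 55 members (41.8%) and of 67.7% of other protein-coding genes. By type the count was 1 of 4 for H1, 2 of 12 for H2A, 8 of 16 for H2B, 5 of 11 for H3 and 7 of 12 for H4. The H2A genes with the highest FPKM, Hist1h2ag and Hist1h2ao, had the stem-loop and neither signal in that window, and their longest run of A was 4 bases. Hist1h2ac had the longest run of A of any member, 15 bases. Of the 55 members, 52 were annotated with a single exon in the transcript used.

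FPKM is the number of fragments scaled to transcript length and to the total of mapped fragments, so it is already per length. Comparisons between these genes are still limited, because some rows span several genes and much sequence is shared, as described below. Capture by poly(dT) can also differ between genes. The deposited tables held 10056 to 11060 rows per library. They hold no counts, but steps in the low values placed the scaling at an estimated 2790000 to 4340000 fragments per library, an estimate that can be too low, since the reads stated by the study are more. At a greater depth 1 fragment would be worth less. On that estimate 1 fragment in a transcript of 400 bases was worth 0.576 to 0.896 FPKM, and between 8 and 12 members per library were listed above 0 but below it. Only 12 to 17 members per library lay above the worth of 10 such fragments, so on this estimate most member values rest on few fragments. Members with longer transcripts rest on more fragments at the same FPKM. Grk6 was at 42.7 FPKM in WT and 89.4 in GRK6-/- HSC, and 26.9 in WT and 57.6 in GRK6-/- CLP. It was higher in the knockout libraries, and 1 value per gene does not show the deleted exons, so this does not check the labels. Il7r, which defines the CLP gate, had no row in WT HSC, was at 1.08 FPKM in GRK6-/- HSC, and stood at 120 in WT and 75.1 in GRK6-/- CLP.

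H2A genes held nearly all of the FPKM of the clustered histone genes. The 12 H2A genes summed to 6981.5 FPKM in WT and 6252 in GRK6-/- HSC, and 4973 in WT and 7338.5 in GRK6-/- CLP, between 95.4% and 97.3% of the members' total in each library. The H2B genes summed to 114.9, 90.7, 51.0 and 103.9 FPKM in the same order. The H4 genes summed to 45.9, 94.6, 148.8 and 98.5 FPKM. H1 genes gave 20.2, 27.5, 39.0 and 15.1 FPKM, and H3 genes 14.8, 21.7, 1.44 and 94.9 FPKM. H3 was the type with the lowest sum in all libraries but GRK6-/- CLP, where H1 was lowest. By cluster, the 46 Hist1 genes on chromosome 13 held 7087 FPKM in WT and 6398 in GRK6-/- HSC, and 5143 in WT and 7505 in GRK6-/- CLP. The 7 Hist2 genes on chromosome 3 held 53.7 to 102.9 FPKM, the 3 Hist3 genes on chromosome 11 held 1.81 to 40.3 FPKM, and the single Hist4 gene on chromosome 6, Hist4h4, was listed only in GRK6-/- CLP, at 2.90 FPKM.

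**Figure D1:**
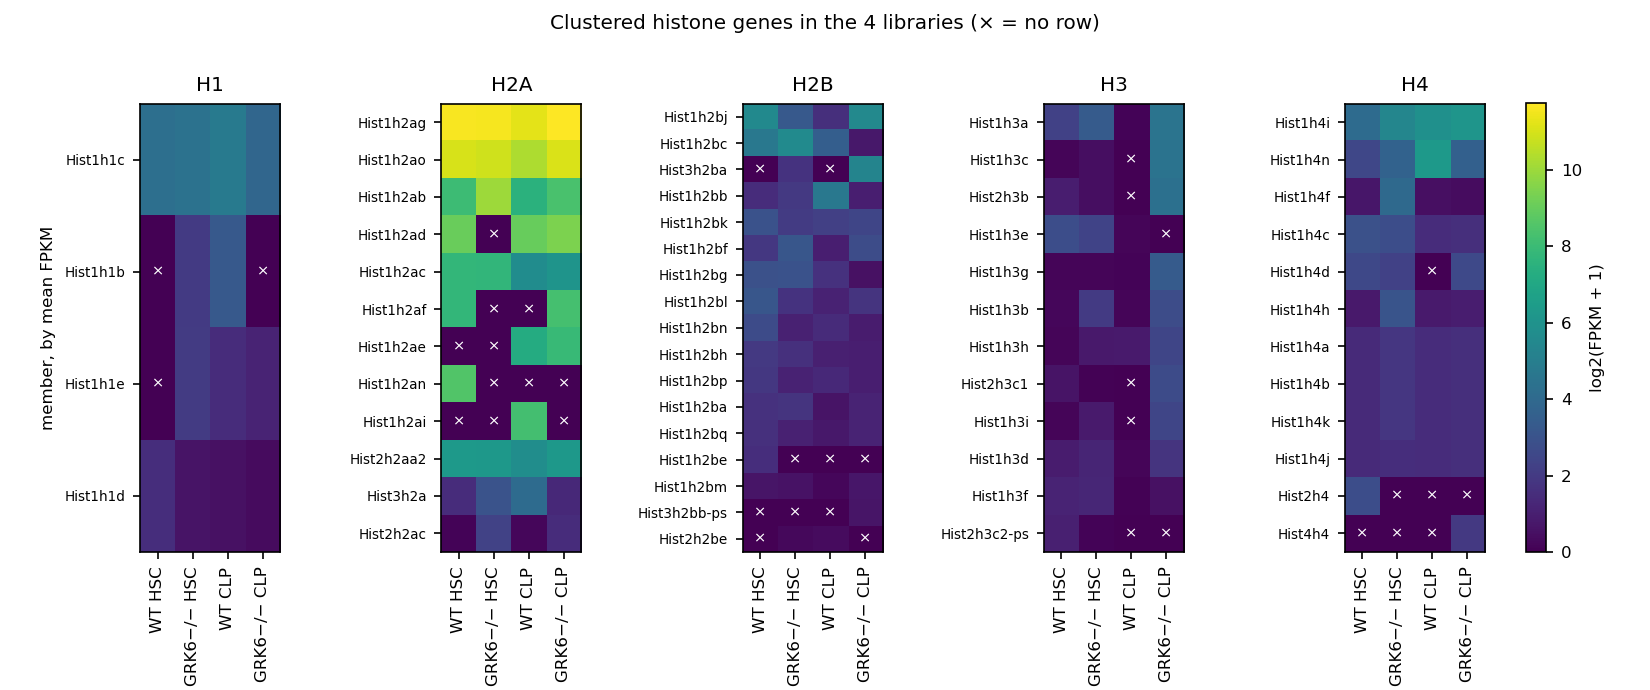
Each row is a member, ordered by mean FPKM within its histone type, each column a library, and the colour gives log2(FPKM + 1). A cross marks a gene with no row in that library. The H2A genes Hist1h2ag and Hist1h2ao stand highest in all 4 libraries.

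**Figure D2:**
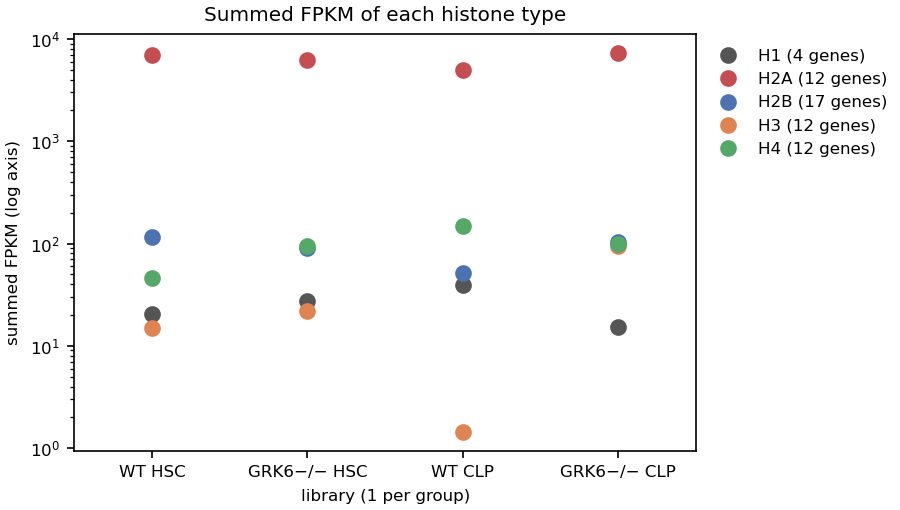
Points give the summed FPKM of each histone type in each of the 4 libraries on a log axis, with 1 library per group and no error bars. H2A lies far above the other types in every library, and H3 runs from 1.44 FPKM in WT CLP to 94.9 in GRK6-/- CLP.

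Hist1h2ag, an H2A gene at the end of the first chromosome 13 group, was at 3207 FPKM in WT and 3042 in GRK6-/- HSC, and 2449.6 in WT and 3428 in GRK6-/- CLP. It ranked 23, 23, 25 and 14 among the genes of those libraries. Hist1h2ao was at 2078, 1877, 1253 and 2189 FPKM in the same order. Both were lowest in WT CLP and differed little among the other 3 libraries. In WT CLP the row of Hist1h2ao covered 514 bases, and elsewhere it covered 94459 and took in the place of Hist1h2ai. The values of Hist1h2ao therefore do not cover the same genes in each library.

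These symbols did not stand for the same stretch of chromosome in each library. The row of Hist1h2ag spanned 209888 bases in WT and 256124 in GRK6-/- HSC, and 289515 in either CLP library, reaching to the annotated edge of Hist1h2ap, Hist1h2an and Hist1h2ak respectively. In all, 12 H2A rows were wider than 10000 bases. Every one of these 12 began and ended within 100 bases of annotated H2A genes, and each held between 5 and 23 annotated clustered histone genes, although H2A members are annotated with 1 exon. The symbols listed changed with the spans. Hist1h2ad was at 529 FPKM in WT HSC and, in CLP, at 522 in WT and 692 in GRK6-/-, but had no row in GRK6-/- HSC. In that library the row of Hist1h2ab ran over chr13:23625780-23843462, across the places of Hist1h2ad, Hist1h2ae and Hist1h2af, and carried 1034 FPKM. Elsewhere Hist1h2ab was at 265 FPKM in WT HSC and, in CLP, at 178 in WT and 335 in GRK6-/-. Hist1h2af was listed in WT HSC, at 218 FPKM, and in GRK6-/- CLP, at 311. Hist1h2an was listed only in WT HSC, at 381 FPKM, and Hist1h2ai only in WT CLP, at 302.5 FPKM. The same was seen outside H2A at chr13:23675539-23714427, which was named Hist1h2be in WT HSC, at 1.92 FPKM, and Hist1h1e in the other libraries.

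Summed over neighbours, the H2A values moved far less. The first group (Hist1h2ag, Hist1h2ai, Hist1h2an and Hist1h2ao) held 5666 FPKM in WT and 4919.6 in GRK6-/- HSC, and 4005 in WT and 5617 in GRK6-/- CLP. The second group (Hist1h2ab to Hist1h2af) held 1233 in WT and 1247 in GRK6-/- HSC, and 898 in WT and 1642 in GRK6-/- CLP. WT CLP was the lowest library in both groups, and the ratio of GRK6-/- to WT was 0.868 and 1.01 in HSC and 1.4 and 1.83 in CLP. The grouping was chosen after the values were seen.

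**Figure D3:**
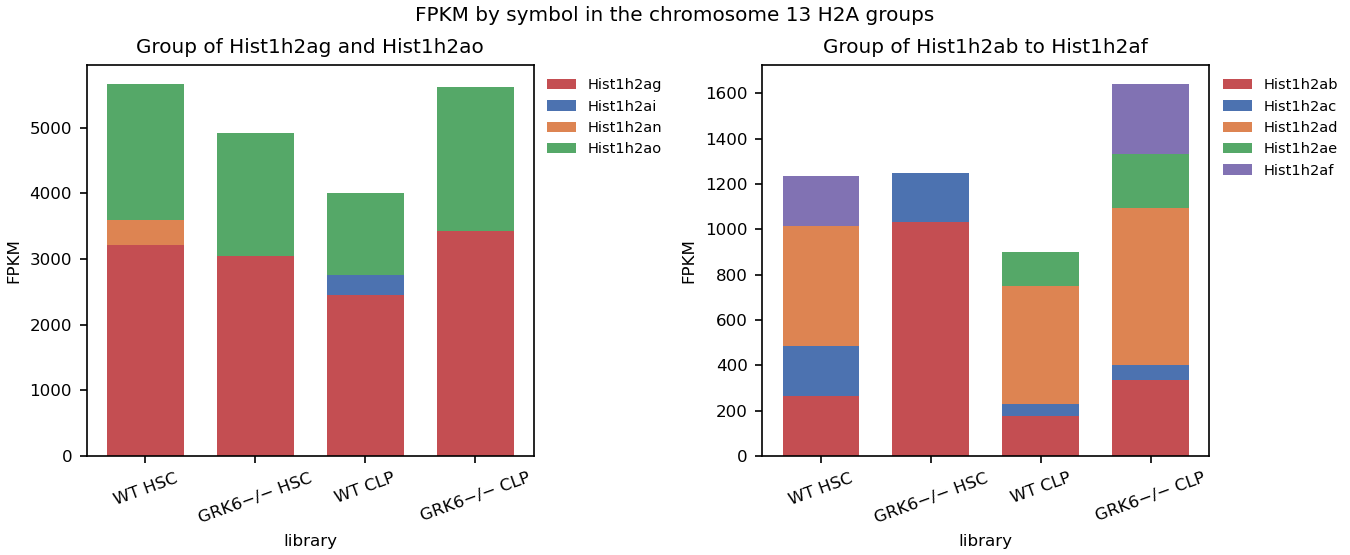
Bars stack the FPKM of the symbols of each chromosome 13 H2A group in each of the 4 libraries. The symbols that carry the value change between libraries, for example Hist1h2ad has none in GRK6-/- HSC, while the height of the stacks runs from 4005 to 5666 FPKM in the first group and from 898 to 1642 in the second.

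The coding sequences show how alike these genes are. The first 60 coding bases are printed for H2A genes of both groups, with capitals at bases that differ from Hist1h2ag.
Hist1h2ag, chr13:22134737-22134796, minus strand: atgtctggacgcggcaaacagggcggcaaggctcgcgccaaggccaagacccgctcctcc
Hist1h2ao, chr13:21902336-21902395, plus strand: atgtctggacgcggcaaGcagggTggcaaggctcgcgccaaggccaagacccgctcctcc
Hist1h2ad, chr13:23666340-23666399, plus strand: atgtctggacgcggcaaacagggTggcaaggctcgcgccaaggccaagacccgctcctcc
Hist1h2ab, chr13:23843002-23843061, plus strand: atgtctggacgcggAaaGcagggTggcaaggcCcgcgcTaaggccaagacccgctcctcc
Over the whole coding sequence Hist1h2ao was 99.2% identical to Hist1h2ag, Hist1h2ad 99.5% and Hist1h2ab 97.7%. Hist1h2ao was identical to Hist1h2ap, which had no row. A window of 100 bases, the length of 1 read of the study, was counted as shared if it was found unchanged in the transcript of another clustered histone gene. All coding windows of Hist1h2ag, Hist1h2ao and Hist1h2ad were shared, as were 67% of those of Hist1h2ab. The median share over the members of a type was 75.6% for H2A, 51.5% for H2B, 69.3% for H3, 54.5% for H4 and 10.1% for H1. Of the 55 members examined, 7 had no unshared coding window and 6 had no shared one. In 12 of 200 rows with an annotated symbol the place was that of an identical copy, namely Hist1h2br listed as Hist1h2bq, Hist1h4m as Hist1h4n and Hist2h2aa1 as Hist2h2aa2, in all 4 libraries. Values given for Hist1h2bq, Hist1h4n and Hist2h2aa2 are sums over both places. The values of single members of a type are therefore uncertain, and how the authors' counting divided shared reads was not tested.

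Most H2A and H2B genes stand head to head, and the distance between the starts of Hist1h2ag and Hist1h2bj is 265 bases. H2A was the higher of this pair in all 4 libraries, but the row of Hist1h2ag spanned between 3 and 6 annotated H2A genes. Its value is therefore not that of the gene beside Hist1h2bj alone. Hist1h2bj was at 46.6 FPKM in WT and 8.62 in GRK6-/- HSC, and 1.96 in WT and 44.5 in GRK6-/- CLP, while the lowest value of Hist1h2ag was 2449.6 FPKM. The pair Hist1h2ao and Hist1h2bq, 170 bases apart, had 0.681 to 2.13 FPKM on the H2B side, with the lowest in WT CLP. That range adds the rows of Hist1h2bq and of its copy Hist1h2br, which had equal values. In other pairs the H2A symbol had no row in some libraries while the H2B gene was listed. Hist1h2ae had no row in either HSC library, where its place lay inside the row of Hist1h2ac, and Hist1h2bg was at 6.53 FPKM in WT and 6.73 in GRK6-/- HSC. On chromosome 3 both sides were low. Hist2h2ac lay between 0.0969 and 4.02 FPKM, and Hist2h2be, on its other side, was at 0.203 FPKM in GRK6-/- HSC, reached 0.266 in WT CLP and had no row in the other libraries. In WT CLP, where Hist2h2ac was at 0.161 FPKM, H2B was the higher. That value of Hist2h2ac was below the worth of 1 fragment in 400 bases, which does not apply to Hist2h2be, annotated with 2618 bases.

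Among H2B genes, Hist1h2bj was high in WT HSC and GRK6-/- CLP and low in the other libraries. Hist1h2bc, which has the most FPKM of the remaining H2B genes, was at 24.9 FPKM in WT and 48.7 in GRK6-/- HSC, and 10.4 in WT and 0.687 in GRK6-/- CLP. Hist1h2bb was at 24.8 FPKM in WT CLP and between 0.979 and 2.81 elsewhere. Hist3h2ba was at 38.2 FPKM in GRK6-/- CLP and 2.27 in GRK6-/- HSC, and had no row in either WT library. No 2 of these 4 genes had the same order of libraries. Hist1h2ba, known as a testis-specific H2B gene, was listed in all 4 libraries at 0.549 to 2.42 FPKM, and 26.6% of its coding windows were shared with other members.

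H3 genes were low in WT CLP, where 7 of 12 were listed and none reached 1 FPKM. Hist1h3a was at 3.798 FPKM in WT and 9.51 in GRK6-/- HSC, and 0.0879 in WT and 21.6 in GRK6-/- CLP. Hist1h3c was at 0.121 FPKM in WT and 0.364 in GRK6-/- HSC and at 21.5 in GRK6-/- CLP, and had no row in WT CLP. Hist2h3b, on chromosome 3, was at 0.941, 0.365 and 19.5 FPKM in those libraries and also had no row in WT CLP. These 3 genes were highest in GRK6-/- CLP, and the HSC values of Hist1h3c and Hist2h3b were near or below the worth of 1 fragment. Hist1h3e went the other way, at 5.80 FPKM in WT and 4.10 in GRK6-/- HSC, with 0.135 in WT CLP and no row in the GRK6-/- CLP library. The starts of the coding sequences of these genes are shown because those of Hist1h3a and Hist1h3c are the same over 60 bases, and capitals mark differences from Hist1h3a.
Hist1h3a, chr13:23854163-23854222, minus strand: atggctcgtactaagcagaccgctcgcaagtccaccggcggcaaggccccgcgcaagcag
Hist1h3c, chr13:23837307-23837366, minus strand: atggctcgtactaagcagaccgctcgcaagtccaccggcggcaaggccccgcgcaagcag
Hist1h3e, chr13:23654175-23654234, minus strand: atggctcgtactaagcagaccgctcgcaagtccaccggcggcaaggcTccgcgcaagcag
Hist2h3b, chr3:96072617-96072676, plus strand: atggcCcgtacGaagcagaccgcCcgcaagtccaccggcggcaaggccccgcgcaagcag

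H4 genes were led by Hist1h4i, at 16.4 FPKM in WT and 41.2 in GRK6-/- HSC, and 57.6 in WT and 68.0 in GRK6-/- CLP. Hist1h4n was at 4.58, 12.1, 80.9 and 11.2 FPKM in the same order, with WT CLP apart from the rest. Each value adds the rows of Hist1h4n and of its copy Hist1h4m, at 46.3 and 34.6 FPKM in WT CLP. Hist1h4f was at 14.9 FPKM in GRK6-/- HSC and between 0.315 and 0.651 in the other 3 libraries. Hist1h4c was higher in both HSC libraries, at 6.48 FPKM in WT and 5.79 in GRK6-/-, than in CLP, at 1.81 and 2.02. Equal values were common in this type. Hist1h4a, Hist1h4b, Hist1h4j and Hist1h4k all had 1.62 FPKM in WT HSC, and together with Hist1h4c all had 1.81 in WT and 2.02 in GRK6-/- CLP. The 3 genes Hist1h4a, Hist1h4b and Hist1h4k had 2.58 FPKM in GRK6-/- HSC. Over all types, between 7 and 11 of the 47 to 52 member rows in a library shared their exact value with another row there. Among all rows, 1.47% to 1.97% did. The member rows counted include both places of a symbol with an identical copy, such as Hist1h2bq. Hist1h4a and Hist1h4k, with equal values in each library, differed at 13 of their first 60 coding bases. Over the whole coding sequence of 309 bases they shared an exact run of 236 bases. Hist1h4i and Hist1h4n, whose values differ, had the same first 60 bases and were 96.8% identical over the whole coding sequence. The 60 bases alone therefore do not tell whether equal values went with shared sequence. They are printed with capitals at differences from Hist1h4a.
Hist1h4a, chr13:23852967-23853026, minus strand: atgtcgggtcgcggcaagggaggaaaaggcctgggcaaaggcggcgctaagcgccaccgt
Hist1h4k, chr13:21842315-21842374, minus strand: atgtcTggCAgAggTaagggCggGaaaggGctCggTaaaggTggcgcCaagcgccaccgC
Hist1h4i, chr13:22133133-22133192, minus strand: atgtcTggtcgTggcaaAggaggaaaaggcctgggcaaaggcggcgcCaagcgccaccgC
Hist1h4n, chr13:21923968-21924027, minus strand: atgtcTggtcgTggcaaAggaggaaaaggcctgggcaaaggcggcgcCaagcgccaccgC

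H1 was carried by 1 gene. Hist1h1c was at 18.4 FPKM in WT and 20.8 in GRK6-/- HSC, and 27.9 in WT and 13.6 in GRK6-/- CLP. Hist1h1b was at 8.83 FPKM in WT CLP and 3.04 in GRK6-/- HSC, and had no row in the others. Hist1h1e lay between 1.23 and 3.12 FPKM where it was listed, and Hist1h1d between 0.284 and 1.86.

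To ask what differed with the genotype, each member was compared on the log2(FPKM + 1) scale, which understates the change of low genes, and a difference of at least 1 on that scale was counted. In HSC, 13 of the 53 members with a row in either library were higher in GRK6-/- and 8 were lower. Of all 11624 genes with a row in either HSC library, 19.3% were higher and 18% lower by the same measure, against 24.5% and 15.1% of the members. The median difference was 0.08 for the members and 0.05 for all genes. Of those past this fold, 10 of the 13 and 3 of the 8 were listed in both libraries. Of the 5 largest rises, Hist1h4f went from 0.651 to 14.9 FPKM, Hist1h4h from 0.729 to 7.17 and Hist2h2ac from 0.0969 to 4.02. The others were Hist1h1e and Hist1h1b, both without a row in WT HSC. The place of Hist1h1e was listed in WT HSC as Hist1h2be, at 1.92 FPKM, against 3.12 for Hist1h1e in GRK6-/- HSC. The 5 largest falls were Hist1h2ad, Hist1h2an, Hist1h2af and Hist2h4, each without a row in GRK6-/- HSC, and Hist1h2bj. The first 3 are H2A symbols whose places lay inside wider rows in that library, and the sums of their groups differed by a ratio of 0.868 and 1.01. By type, H4 had 4 of 11 members higher and 1 lower, H2A 3 and 3 of 10 and H2B 2 and 4 of 16. H3 had 2 and 0 of 12 and H1 2 and 0 of 4. The H1 rises include Hist1h1e and the H2B falls include Hist1h2be, which were names of the same place.

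In CLP, 16 of 53 members were higher in GRK6-/- (30.2%) and 7 were lower (13.2%), where 26.6% and 23.4% of all 11191 genes were. The median difference was 0.41 for the members and 0.05 for all genes. H3 differed from the other types in its counts, with 9 of 11 members higher, 0 lower and a median of 2.53. The other types had 2 of 11 H2A genes, 3 of 16 H2B genes, 2 of 11 H4 genes and 0 of 4 H1 genes higher. All 4 H1 genes were below WT, and Hist1h1b, with no row in GRK6-/- CLP, was the 1 past the fold. Of the 9 H3 genes, 5 were listed in both libraries, namely Hist1h3a, Hist1h3b, Hist1h3d, Hist1h3g and Hist1h3h. In WT CLP each of these 5 was below 1 FPKM, and in GRK6-/- CLP they were at 21.6, 5.57, 2.40, 9.50 and 4.55 FPKM. H3 genes share much of their sequence, with a median of 69.3% of coding windows shared. Hist1h3b, Hist1h3d and Hist1h3e had the same 0.135 FPKM in WT CLP, so the 9 genes are not separate measurements. The ratio of the H3 sums was 65.8, over a WT sum of 1.44 FPKM that is close to the worth of a few fragments, so the ratio is imprecise. The rises outside H3 among the 5 largest were Hist1h2af and Hist3h2ba, both without a row in WT CLP, where the place of Hist1h2af lay inside the row of Hist1h2ad. The 5 largest falls were Hist1h2ai and Hist1h1b, both without a row in GRK6-/- CLP, Hist1h2bb, from 24.8 to 0.979 FPKM, Hist3h2a, from 16.2 to 1.53, and Hist1h2bc, from 10.4 to 0.687. The place of Hist1h2ai lay inside the row of Hist1h2ao in GRK6-/- CLP.

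**Figure D4:**
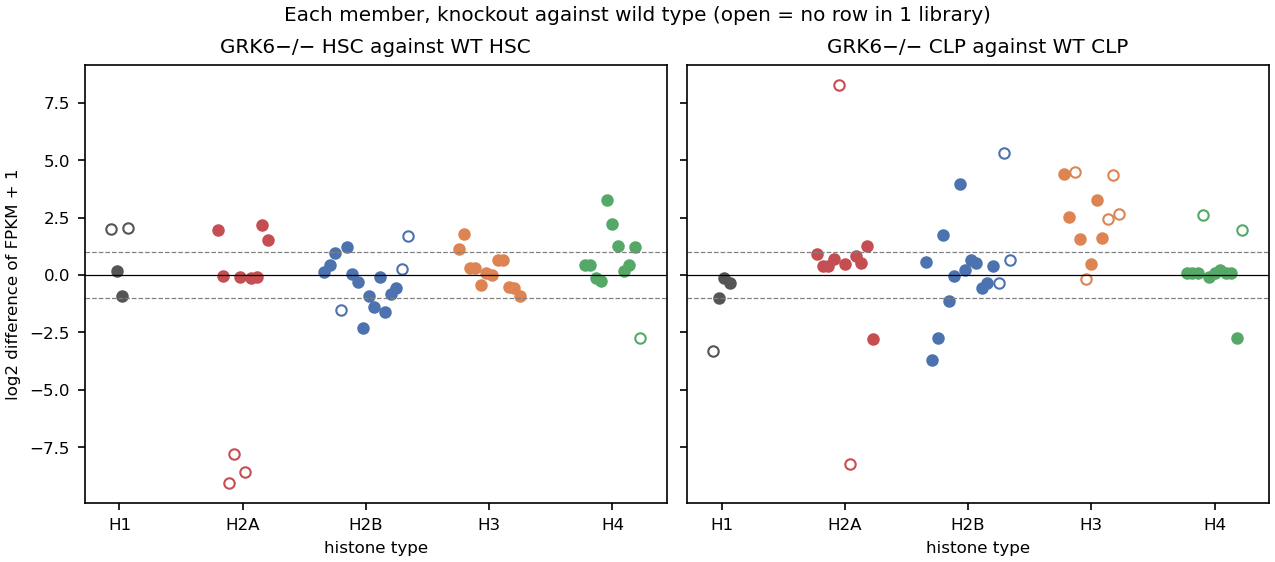
Each point is a member, with its log2 difference of FPKM + 1 between GRK6-/- and WT, in HSC at left and CLP at right, by histone type. Open points have no row in 1 of the libraries compared, and dashed lines mark a difference of 1. In CLP 9 of 11 H3 genes lie above the upper line.

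Other gene lists are given beside the share of all genes past the fold, 26.6% higher and 23.4% lower in CLP and 19.3% and 18% in HSC. The 24 S phase genes, among them Pcna, Rrm2 and the Mcm genes, were all listed in each library and summed to 1523 FPKM in WT and 2899.7 in GRK6-/- CLP, with 11 higher and 1 lower past the fold. In HSC they summed to 2048 in WT and 1741 in GRK6-/-, with 1 higher and 2 lower. All 9 listed erythroid markers were higher in GRK6-/- CLP, with sums of 154 and 18177 FPKM, and no row for Alas2 and Slc4a1 in WT CLP. Most of the GRK6-/- CLP sum was Hba-a2, at 17220 FPKM against 17.4 in WT CLP. In HSC 8 of 9 were higher, with sums of 341 in WT and 1744 in GRK6-/-, and no row for Slc4a1 in GRK6-/- HSC. Most of the GRK6-/- HSC sum was Car1 and Car2, at 612 and 955 FPKM against 24.5 and 299 in WT HSC. Of 11 listed B lineage markers 7 were higher and 2 lower in GRK6-/- CLP, with sums of 1456 in WT and 2298 in GRK6-/- and no row for Rag2 in the knockout. Of 7 listed megakaryocyte markers 4 were higher and 0 lower in GRK6-/- CLP, and in HSC 1 was higher and 3 lower, with sums of 164 in WT and 35.5 in GRK6-/-. Of 11 HSC markers, 5 were higher and 0 lower in GRK6-/- CLP, and 2 higher and 3 lower in GRK6-/- HSC. Of 11 neutrophil and monocyte markers, 2 were higher and 3 lower in CLP. In HSC 1 of 9 was higher and 3 were lower. CLP markers had 1 higher and 1 lower, both of 7 in CLP and of 5 in HSC. T lineage markers had 1 of 3 higher in CLP and 0 of 6 past the fold in HSC. In HSC 0 of 5 B lineage markers were past the fold. The part of these cell type and S phase differences in the histone values was not tested.

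Across the libraries of both populations, 18 of 57 members (31.6%) were above WT in both knockout libraries and 5 (8.77%) below in both, by any margin. Of all 12417 genes, 21.7% were above and 20.2% below. Of the 18, 15 were listed in all 4 libraries, and 7 were H3 genes. Hist1h3a, among them, had log2 differences of 1.13 in HSC and 4.38 in CLP. Of the H4 genes among the 18, Hist1h4i had differences of 1.28 and 0.24, and those of Hist1h4a, Hist1h4b and Hist1h4k were equal, at 0.45 and 0.10. The members below WT in both were Hist1h1d, Hist1h2bh, Hist1h2bn, Hist1h2bp and Hist1h3e.

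Between the populations, 18 of 54 members were higher in WT HSC than in WT CLP (33.3%) and 8 were lower (14.8%), where 24.7% and 21.8% of all genes were. H2B had 7 of 15 members higher and 1 lower, and H3 4 of 12 higher and 0 lower. The 4 H3 members include Hist2h3c2-ps, a pseudogene symbol, at 1.04 FPKM in WT HSC and without a row in WT CLP. The 7 H2B genes include Hist1h2be, whose place was named Hist1h1e in WT CLP. Hist1h4n and Hist1h4i, at 4.58 and 16.4 FPKM in WT HSC, were the H4 genes that were lower past the fold. Between the knockout libraries, 10 of 53 members were higher in HSC than in CLP (18.9%) and 13 lower (24.5%), against 23.4% and 22.3% of all genes. There H3 had 1 of 12 higher and 7 lower, with Hist1h3g at 0.101 FPKM in GRK6-/- HSC and 9.50 in GRK6-/- CLP. The libraries are those of the genotype comparisons, so these counts are not separate evidence.

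The replication-independent histone genes gave 3620 FPKM in WT and 3402 in GRK6-/- HSC, and 4583 in WT and 4245 in GRK6-/- CLP over 11 listed genes of 14. This sum includes H2A variant genes. It was above the 195.9 to 312 FPKM of all clustered genes other than H2A in every library. It was below the 5213 to 7651 FPKM of all clustered genes with H2A, also in every library. H3f3a and H3f3b, which encode the replacement histone H3, were at 743 and 498 FPKM in WT HSC and 854 and 377 in the knockout, and at 778 and 441 in WT CLP and 965 and 684 in the knockout. H2afz, an H2A variant gene, lay between 705 and 991 FPKM. H2afy, with the highest mean of the list, was at 850 FPKM in WT and 343 in GRK6-/- HSC. It was at 1663 FPKM in WT and 1372 in GRK6-/- CLP, and its fall in HSC was past the fold. In HSC 0 of 10 were higher and 2 lower past the fold, and in CLP 0 of 11 and 3, where all genes had 19.3% and 18% in HSC and 26.6% and 23.4% in CLP. Cenpa, the centromeric H3 variant, was at 85.8, 137, 314 and 25.2 FPKM in the order used above, with GRK6-/- CLP lowest, where the sum of the clustered H3 genes was highest.

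Of 19 genes for the synthesis and 3′ end processing of histone mRNA, 3 were higher and 4 lower past the fold in HSC. In CLP 3 of 18 were higher and 4 lower. Of all genes, 19.3% were higher and 18% lower in HSC, and 26.6% and 23.4% in CLP. Slbp, which encodes the protein that binds the stem-loop, was at 60.4 FPKM in WT and 79.7 in GRK6-/- HSC, and 71.98 in WT and 103 in GRK6-/- CLP. Srrt, which takes part in RNA 3′ end processing with the cap-binding complex, was at 198, 119, 36.1 and 71.96 FPKM in that order. Of the histone chaperones, which carry histones to and from DNA, 19 of 20 were listed. Beside the same shares of all genes, 5 were higher and 3 lower in HSC, and 5 higher and 2 lower in CLP. Nasp, a chaperone of H3 and H4, was at 27.8 FPKM in WT and 129 in GRK6-/- CLP, and at 68.8 and 60.5 in WT and GRK6-/- HSC.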

How the data were processed

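RNA of sorted HSC and CLP was measured in 4 pooled libraries, 1 per group. The authors aligned reads to mm9 with the Tuxedo suite, with TopHat 1.4.0 named in the submitters' processing notes, and deposited FPKM values, 1 per row, with symbols and loci and without counts. Other settings are not given in the sources used here. FPKM of rows that carried the same symbol was added up, an absent row counted as 0, and 333 of 12750 symbols and joint names were left out because a row named several genes (no such row held a clustered histone gene). Differences are log2 of FPKM + 1, and at least 1 was counted. With 1 library a group no test was run.

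The clustered histone genes and the other gene lists were chosen with earlier results of these data known. Named genes were the 4 with the highest mean FPKM of each type and the 5 largest rises and falls by genotype in each population. Depth was estimated from steps in FPKM below 0.3 of genes annotated with 1 transcript, at least 1500 bases long (74.4% to 81.6% of such values lay within 10% of 1, 2 or 3 fragments) and was tested on simulated data, as was the counting. Sequences and gene models came from NCBIM37 and GENCODE vM1. Of 57 symbols 56 matched. Transcripts were those with a stem-loop match, then the longest coding sequence. Python 3.11.15, numpy 2.4.6, pandas 2.3.3 and matplotlib 3.10.9 were used.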

Additional observations from a re-analysis of the deposited data

Results flagged for a closer look

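For 3 members listed in all 4 libraries, the genotype difference passed the fold in both populations and had opposite directions. Hist1h2bj differed by -2.31 on the log2(FPKM + 1) scale between GRK6-/- and WT in HSC and by 3.94 in CLP. Hist1h4n, summed with its copy Hist1h4m, differed by 1.23 in HSC and by -2.75 in CLP. Hist3h2a differed by 1.53 in HSC and by -2.77 in CLP. With 1 library in each group the difference between populations was not tested.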

How the results depend on the processing

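With 1 library in a group, no alternative bears on the spread between mice. No paired analysis was possible because no test was run and the labels carry no replicate numbers. No row that named several genes held a member, so adding such rows gave no value. The sums over all members kept their direction when rescaled or without the leading member. Taken as a median difference over members, GRK6-/- HSC against WT HSC turned from -0.146 to 0.077 (log2), and GRK6-/- HSC against GRK6-/- CLP from -0.24 to 0.10. A pseudocount of 0.1 FPKM gave 14 members lower in GRK6-/- HSC instead of 8, and 16 higher in GRK6-/- HSC than in GRK6-/- CLP instead of 10. A pseudocount of 5 FPKM left 4 higher and 5 lower in GRK6-/- HSC, 10 higher in GRK6-/- CLP, 7 higher in WT HSC than in WT CLP and 6 higher in GRK6-/- HSC than in GRK6-/- CLP. A log2 fold of 2 gave 5 higher and 5 lower in GRK6-/- HSC, 9 higher in WT HSC than in WT CLP and 6 higher in GRK6-/- HSC than in GRK6-/- CLP. These follow from the construction of the measure. Alternatives chosen after seeing the data were summing the H2A rows of each chromosome 13 group, which left 5 members lower in GRK6-/- HSC, and leaving out H2A. Without H2A the summed level in WT HSC against WT CLP had a log2 ratio of -0.29 instead of 0.46, and GRK6-/- HSC against WT HSC one of 0.26 instead of -0.15. The other counts stayed within 1.5 times their value, and the other sums kept their direction.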
